A study of Mus musculus with 8 samples.

Results

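The nuclear genes for subunits of the mitochondrial respiratory chain and ATP synthase were described in liver RNA of 8 mice. Members were the probe sets whose single platform gene symbol begins with Nduf, Uqcr, Atp5 or Cox4 to Cox8, or is Sdha, Sdhb, Sdhc, Sdhd, Cyc1 or Cycs. This gave 101 probe sets for 73 genes, out of 12422 probe sets that named 8251 genes. The genes fell into 29 of complex I, 4 of complex II, 8 of complex III, 15 of complex IV, 14 of complex V, cytochrome c (Cycs) and 2 assembly factors of complex I (Ndufaf1, Ndufaf4). A level filter kept the brighter part of the array, probe sets whose mean log2 signal exceeded the array-wide median, and 63 of the 73 genes passed it. Another 10 probe sets that name a member together with a second gene or pseudogene were not counted.

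All 8 animals formed 1 group. They were female Ames mice of normal phenotype, either +/+ or +/df at the recessive Ames dwarf locus, which the labels do not tell apart. Every animal received 30% less food than freely fed normal females ate, with water always available, and its liver was taken at an age of 24 to 26 months. Each label describes 1 mouse, so each Affymetrix U74Av2 array was taken as 1 animal (n = 8), and its spread holds animal and technical differences together. No freely fed or dwarf animal enters this account, so no value below shows an effect of diet or genotype.

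The respiratory chain passes electrons from NADH (complex I) and succinate (complex II) through ubiquinone to complex III, then by cytochrome c to complex IV, which reduces oxygen. Complexes I, III and IV pump protons across the inner mitochondrial membrane, and complex V, the ATP synthase, uses that gradient to make ATP. Their subunits come from both nuclear and mitochondrial genes, and only nuclear genes are among the members. In liver the chain supplies the ATP that urea synthesis and gluconeogenesis consume. Several complex IV subunits have a liver form and a heart and skeletal muscle form encoded by separate genes.

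Promoter letters were read from the RefSeq promoter table (GRCm38.p6), which runs from 250 bases before to 50 bases after each start and held 59 of the 73 genes. The letters GCGCA, then any base, then GCGC are the core bound by NRF1, a regulator of many respiratory chain genes, and were searched on both strands. They stood in the promoters of 12 of the 59 members (20.3%), against 12.7% of 3920 genes above the level filter and 5.19% of all 27025 genes in the table. By complex the counts were 3 of 26 in complex I, 2 of 3 in II and 1 of 4 in III. They were 1 of 11 in IV and 4 of 12 in V, and the remaining member was the assembly factor Ndufaf4. The letters CCGGAAGT (GABPA) stood in 4 members (6.78%, against 9.87% of genes above the filter) and TCAAGGTCA (ESRRA) in 1 (1.69% against 0.357%). A match describes letters and is not a measured binding site. Below are the 250 bases before the start of Sdha (chr13:74350241-74350490, minus strand, 3 matches), Cox6a1 (chr5:115348959-115349208, minus strand, 2 matches) and Atp5k (chr5:108434400-108434649, minus strand, 1 match). They are shown because they hold matches upstream of the start and because Atp5k had the widest range of the members above the filter. Capitals mark the matched letters.
Sdha: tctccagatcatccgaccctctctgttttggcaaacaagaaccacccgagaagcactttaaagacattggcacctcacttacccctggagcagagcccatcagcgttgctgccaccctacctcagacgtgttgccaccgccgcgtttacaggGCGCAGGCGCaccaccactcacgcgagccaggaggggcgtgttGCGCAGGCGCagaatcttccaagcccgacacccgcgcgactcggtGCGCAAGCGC
Cox6a1: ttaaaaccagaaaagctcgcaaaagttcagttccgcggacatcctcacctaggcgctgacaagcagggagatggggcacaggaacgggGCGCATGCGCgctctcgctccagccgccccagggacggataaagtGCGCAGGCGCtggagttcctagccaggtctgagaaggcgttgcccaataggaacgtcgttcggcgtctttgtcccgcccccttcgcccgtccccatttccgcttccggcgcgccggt
Atp5k: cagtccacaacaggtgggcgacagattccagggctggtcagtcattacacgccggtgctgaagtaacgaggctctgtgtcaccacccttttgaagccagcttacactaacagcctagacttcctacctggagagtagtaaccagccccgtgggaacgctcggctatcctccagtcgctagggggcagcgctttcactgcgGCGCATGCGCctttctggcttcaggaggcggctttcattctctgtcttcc

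Before the members are described, the arrays themselves need a statement, since replicate 5 and, less so, replicate 6 stood apart. The log2 ratio of the 3′ over the 5′ Gapdh control signal, a measure of RNA integrity, reached 4.35 on replicate 5 and lay between −0.24 and 0.33 for the other 7 arrays. For pyruvate carboxylase, replicates 5 and 6 had 4.33 and 4.30, and the other 6 arrays had 1.42 to 2.76. Over probe sets above the filter, the median correlation with the other arrays was 0.881 for replicate 5, 0.943 for replicate 6 and 0.962 to 0.974 for the other 6. The tissue label matched its markers, as 6 hepatocyte genes summed to 124965 to 130063 on the 8 arrays, and all 6 passed the filter. Quantile normalization gives the brightest probe sets of every array nearly the same values, so the even sums do not measure hepatocyte content. Markers of other cell types differed between arrays. On replicate 6, 2 erythroid genes summed to 2709 (6589 to 7702 elsewhere) and 4 endothelial genes to 647 (877 to 1156 elsewhere). The endothelial genes Cdh5, Kdr and Tek passed the filter and were lowest on replicate 6. Pecam1, below the filter, went the other way, at 183 there with a median of 57.4. The sum of 6 macrophage markers was lowest on replicate 5, at 2908 against 3567 to 4512, and C1qa among them was 80.0 against 768 to 1557. These markers did not share a direction there. Of the 4 above the filter, C1qa and Cd68 were lowest on replicate 5, and Csf1r was highest, at 933 against 559 to 918. Reg1, a pancreatic acinar gene, read 1968 on replicate 2 against 30.2 to 200.1 on the rest. Of the other pancreas genes above the filter, Cela1 was highest on replicate 7 (1827, against 873 on replicate 2). Cel was highest on replicate 3 (659, against 628 on replicate 2). Ctrb1 was highest on replicate 2, at 778, close to 770 on replicate 7. The part of these cells in the members' values was not tested. Values below are quantile-normalized signals in arbitrary units, with a floor of 24.6. A signal depends on the probes, so levels of different genes are not ranked against each other.

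Across the 8 animals the members were a steady set. Of the 63 members above the filter, 5 (7.94%) had a highest array over 2 times the lowest, where 37.2% of all 4810 genes did. The 5 were Atp5k, Ndufv1, Cycs, Ndufb8 and Cox8b. With the deposited scaling, before quantile normalization, 10 members (15.9%) exceeded 2-fold, against 38.2% of all genes. The median range was 1.501-fold and the median coefficient of variation (CV) 13.6%, against 1.80-fold and 19.1% over all genes. Without replicates 5 and 6, 0 of 63 members exceeded 2-fold, against 10.1% of all genes, and the median CV was 8.51% against 12.9%.

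Transcripts of high signal vary less on these arrays, so each variance was also set against that of transcripts of like level. On that log2 ratio the members had a median of −0.46 and all genes one of 0.09, and 23 of 63 members (36.5%) lay above 0, against 52.6% of all genes. A limma-based F test of each variance called 0 of 63 members at an adjusted p of 0.05 (Benjamini-Hochberg over 6211 probe sets). The background was 0% of probe sets too. That 0 therefore does not set the members apart, as even C1qa, at 80.0 to 1557, had an adjusted p of 0.842 in this test. At an unadjusted p of 0.05 the limma-based test again called 0 members, against 5.67% of probe sets and 4.84% of genes. The lowest unadjusted p of a member in that test was 0.120, for Ndufv1, with an adjusted p of 0.988. Without both replicates 5 and 6 the unadjusted count was 1 (Ndufb3), against 5.79% of genes.

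**Figure D1:**
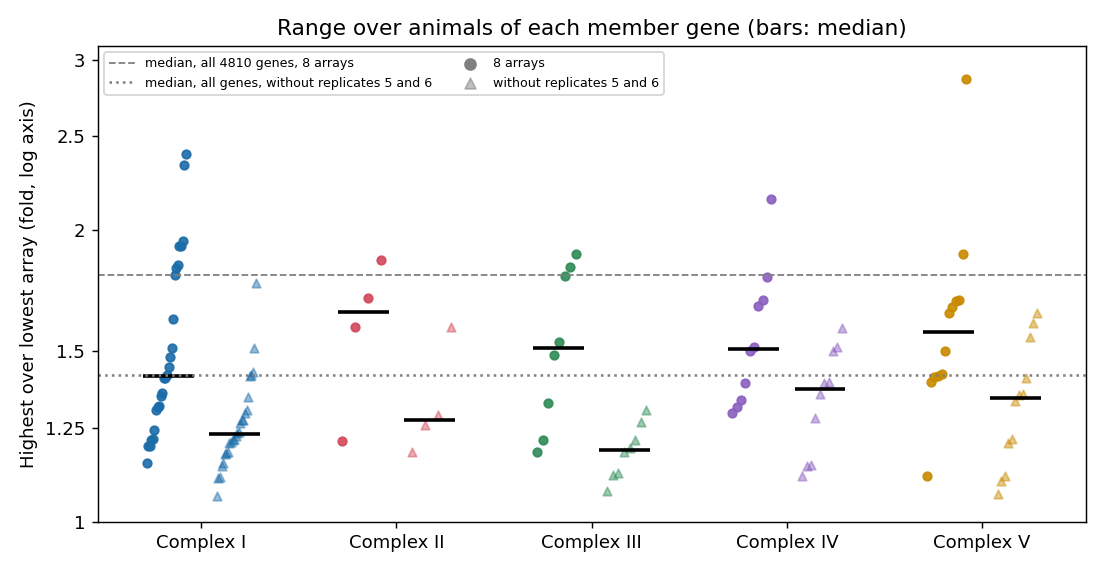
Range of each member gene above the filter, highest array over lowest array (fold, log axis), by complex, for 8 arrays (circles) and without replicates 5 and 6 (triangles). Black bars are medians over the genes of a complex, and the dashed and dotted lines are the medians of all genes (1.80 and 1.42). The medians of the 5 complexes lie between 1.41 and 1.65 with 8 arrays and between 1.19 and 1.37 without replicates 5 and 6, all below the matching line.

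Compared by complex, the median range was 1.41-fold for complex I (26 genes), 1.65 for II (4 genes), 1.51 for III (8 genes), 1.51 for IV (10 genes) and 1.57 for V (12 genes). Without replicates 5 and 6 these medians were 1.23, 1.27, 1.19, 1.37 and 1.34. The order of the complexes thus differed between the sets of arrays, and complex III had the narrowest median once those replicates were left out. Variance ratios gave a median of −0.93 for complex I, 0.51 for II, −0.07 for III, −0.31 for IV and −0.45 for V. No test was made between complexes, since genes of a complex are not replicates of it.

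Complex I opens the chain by oxidising NADH. Ndufv1, the subunit that binds NADH, was 4352 at its lowest, 7661 at the median and 10444 at its highest (2.40-fold). Its low value was on replicate 5 and its high one on replicate 6, and on the other 6 arrays it kept within 6733 to 8317. On the probe set used, its iron-sulphur partner Ndufv2 ran from 2771 to 3618 with a median of 3202. A second Ndufv2 probe set above the filter ran from 379 to 573 (1.51-fold) and was highest on replicate 5. Ndufs1, the large iron-sulphur subunit, ran from 1833 over a median of 2162 to 2970.0, and Ndufs3, another core subunit, from 3394 over 3852 to 4778. Both were highest on replicate 5, where Ndufv1 was lowest, so transcripts of core subunits of the same arm did not share a direction there.

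Among the accessory subunits of complex I, Ndufb8 of the membrane arm had the widest range above the filter. It read 1576 on replicate 5 and 2957 to 3683 on the other 7 arrays (median of all 8, 3270.0), with no overlap. Ndufb3, also of the membrane arm, spread without such a single array, from 1710.3 on replicate 6 over a median of 2216 to 3125 on replicate 8. With 1771 to 3125 on the 6 arrays other than 5 and 6, its 1.77-fold range there was the widest of complex I members above the filter. Ndufa5 went from 3176 to 4180.2 on 7 arrays and was 5849.8 on replicate 5. Ndufab1, the mitochondrial acyl carrier protein, was 2432 to 2939 on 7 arrays and 4679.9 on replicate 5. On the same array Ndufa3 was 2542 against 3783 to 4896, and Ndufa1 was 98.3 against 135 to 191.

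Other complex I members were steadier. Ndufb11 was 3264 at its lowest, 3716 at the median and 3962 at its highest, with the smallest log2 SD of the complex, and Ndufa7 ran from 4984 to 5733 (1.15-fold). Ndufb10 had a 1.20-fold range (3379 to 4049) and Ndufv3, an accessory subunit of the matrix arm, likewise 1.20-fold (954 to 1143). Ndufa10 held 379 to 421 on the arrays other than 5 and 6 and fell to 310.2 on replicate 6. The 22 accessory genes had a median range of 1.41-fold and the 4 core genes one of 1.51-fold. Below the filter lay Ndufa12 (25.2, 34.8 and 90.5 as lowest, median and highest), Ndufc2 (24.6, 64.8 and 117) and Ndufs4 (101, 146 and 167), and the first 2 of these reached or neared the floor.

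Complex II, succinate dehydrogenase, is the only complex of the chain that is also an enzyme of the citric acid cycle. Its iron-sulphur subunit Sdhb varied least, from 5194 over a median of 5585 to 6289.9 (1.21-fold). The flavoprotein Sdha ran from 956 over 1081 to 1518 (1.59-fold), with replicates 3, 5 and 8 at 1363 to 1518 and the other 5 at 956 to 1082. Of the membrane anchors, Sdhc was 4418 on replicate 5 and 6044 to 8235 on the other 7, with a median of 6683. Sdhd ran from 6895 over 7986 to 11735, and its highest values were on replicate 6 (11735) and replicate 5 (9843). Transcripts of the anchors were thus on opposite sides of their usual range on replicate 5, and both were highest on replicate 6.

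Complex III transfers electrons from ubiquinol to cytochrome c. Transcripts of its large core proteins, each read by 1 probe set, lay on opposite sides on replicate 5. Uqcrc2 was 4582 there and 2424 to 3076 on the other 7 arrays (median 2674), whereas Uqcrc1 was 3840.0 there and 4934 to 6895 on the others (median 5476). Cyc1, the cytochrome c1 that hands electrons on, had its lowest signal, 8984, on replicate 5, and the other 7 arrays read 11643 to 13782 (median of all 8, 12189.7). Uqcrb, a small subunit near the quinone site, reached 9351 on replicate 5, where the other 7 arrays read 5099.9 to 6077 (median of all 8, 5769.5). The hinge protein Uqcrh was 5989 there and 4026 to 5298 elsewhere. Outside replicates 5 and 6 these genes kept within narrow limits, as the range there was 1.27-fold for Uqcrc2, 1.18 for Uqcrc1, 1.19 for Uqcrb, 1.12 for Uqcrh and 1.12 for Cyc1. Uqcrq was the steadiest of the complex, from 12798 over a median of 13557 to 15097 (1.18-fold).

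Cytochrome c, the soluble carrier between complexes III and IV, is encoded in somatic tissues by Cycs. It was 432 at its lowest (replicate 7), 573 at the median and 1027 at its highest (2.38-fold). Replicate 5 alone made that range, since the other 7 arrays read 432 to 638.

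Complex IV reduces oxygen, and its members above the filter were mostly subunits used in all tissues or in liver. The liver form Cox7a2 was 8799 on replicate 5 and 5271 to 5881 on the other 7 (median 5540.3), with no overlap. The liver form Cox6a1 was 7953 at its lowest, 9026 at the median and 10444 at its highest (1.31-fold). Cox4i1, the regulatory subunit, ran from 385 over 467 to 652. Cox7b ran from 2849 on replicate 8 over 3791 to 5099.9 on replicate 5, and Cox7a2l, a factor that joins complexes III and IV into supercomplexes, from 1094 over 1413 to 1642. Cox5b had the smallest log2 SD of the complex, from 3659.7 over 4004 to 4892, and Cox6c lay within 7411 to 9597. Both were lowest on replicate 8. For Cox6c this holds for the probe set used, as its second one above the filter ran from 712 on replicate 6 to 1505 on replicate 2. Cox5a, a subunit of every tissue, had both of its probe sets below the filter (24.6, 31.5 and 71.9 for the one used). The only probe set of the liver form Cox8a was also below it (24.6, 41.0 and 53.7). The low signals bear on these probe sets and were not taken as absence of the transcripts.

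Muscle and testis forms of complex IV served as a check on the tissue. Cox6a2 was 149.7 on replicate 7 and 25.8 to 55.9 on the other 7 arrays, a range of 5.80-fold, and did not pass the filter. Cox7a1 was also below it, with 24.6, 39.9 and 72.6 as lowest, median and highest, and was at the floor on replicate 7. Cox8b passed the filter at 127, 183 and 273, and was highest on replicate 6. That holds for the probe set used, as its second probe set was below the filter at 24.6 to 63.0 and highest on replicate 4. Of the testis forms, Cox6b2 was low (24.6, 37.8 and 92.8), whereas 1 of the probe sets under the symbol Cox8c read 1154, 1529 and 1747 and the second was at the floor on all 8 arrays. That difference between probe sets of the same symbol was not resolved, since only the platform's annotation names them.

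**Figure D2:**
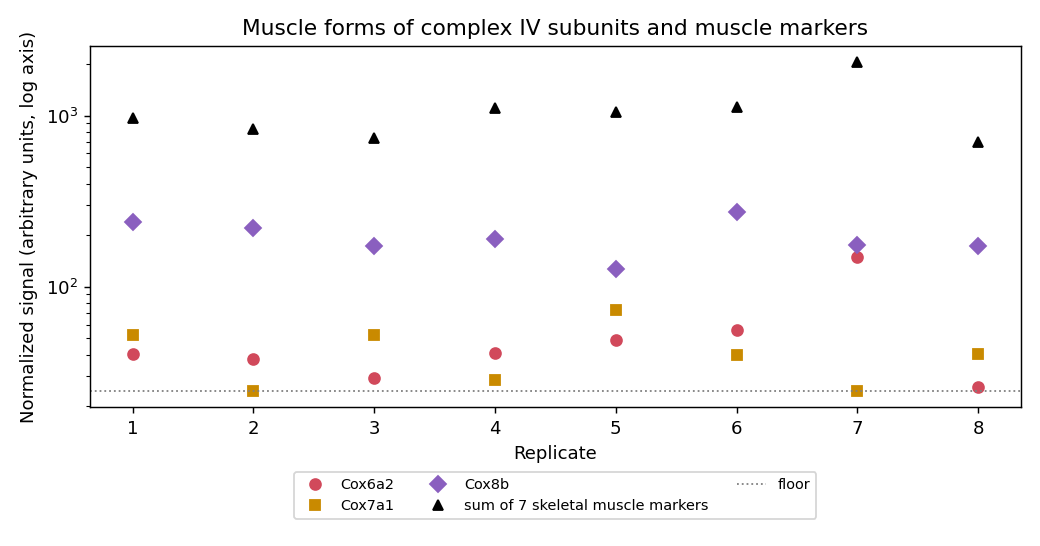
Normalized signal (arbitrary units, log axis) of 3 muscle forms of complex IV subunits and the sum of 7 skeletal muscle markers on each of the 8 arrays; the dotted line is the floor of 24.6. Cox6a2 (149.7) and the marker sum (2046) are highest on replicate 7, while Cox7a1 and Cox8b are not.

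Skeletal muscle markers were set beside these values. The 7 markers on the array summed to 2046 on replicate 7 and 704 to 1126 on the other 7 arrays, and 5 of them passed the filter. Acta1, skeletal actin, was 571 on replicate 7 and 24.6 to 244 elsewhere. Ckm, muscle creatine kinase, was 178 there and 107 to 209 elsewhere. The marker sum and Cox6a2 were highest on the same array, and the part of muscle RNA in the Cox6a2 value was not tested. In whole tissue, fewer cells of a type and less RNA per cell cannot be told apart.

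Complex V makes ATP in its F1 head, which the peripheral stalk holds still while the c ring in the membrane turns the central stalk inside it. In F1, which comprises the head and the central stalk, Atp5d (delta) was the steadiest of all members above the filter, from 1276 over a median of 1365 to 1421 (1.11-fold). Atp5a1 (alpha) ran from 8479.8 over 10107 to 12004, Atp5c1 (gamma) from 5258 over 6917 to 9935, and Atp5e (epsilon) from 1869 over 2165 to 2807. The last 3 were highest on replicate 5. In the peripheral stalk, Atp5j was 4495 on replicate 5 and 2695 to 3278 elsewhere, Atp5o ran from 2481 over 3514 to 4208, and Atp5pb from 169 over 216 to 277. Atp5pb kept its full 1.64-fold range without replicates 5 and 6.

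Of the small membrane subunits of complex V, Atp5k (subunit e) had the widest range of the members above the filter, 2.87-fold. It was 1096 on replicate 5 and 382 to 614 on the other 7, with a median of 482. Atp5l (subunit g) was 11321 on replicate 5 and 7973 to 9068 elsewhere, and Atp5md 13273 against 7861 to 9483. Subunits e and g sit together where pairs of the enzyme meet, and the transcripts of both were thus above the range of the other arrays on replicate 5. Atp5mpl was within 3549 to 5009.9 and highest on replicate 6. For the c ring, Atp5g2 was 739.8 at its lowest, 863 at the median and 1032 at its highest, and Atp5g1, a separate gene for the same mature protein, stayed below the filter at 102, 139.7 and 182. Atp5j2 (subunit f) was below it too, at 69.8 to 108.

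The complexes were next compared array by array through a score, the mean over a complex's genes of log2 signal minus the gene's own mean. On replicate 5 the score was 0.27 for complex V, 0.15 for III, 0.15 for IV, 0.02 for I and −0.03 for II. On the other 7 arrays the score of complex V lay between −0.12 and 0.03, so replicate 5 did not overlap with them. The near-zero score of complex I on replicate 5 averaged genes that were far apart, from 1.05 below (Ndufb8) to 0.81 above (Ndufa5) the gene's median over the 6 remaining arrays, on the log2 scale. Scores on replicate 6 were 0.13 for complex II, 0.12 for IV, 0.09 for III, 0.07 for I and 0.00 for V. Without probe sets of shared sequence (name suffixes such as _f_at) the score of complex III on replicate 5 was −0.01, since Uqcrb and Uqcrc2 are then left out, while complex V kept 0.26.

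**Figure D3:**
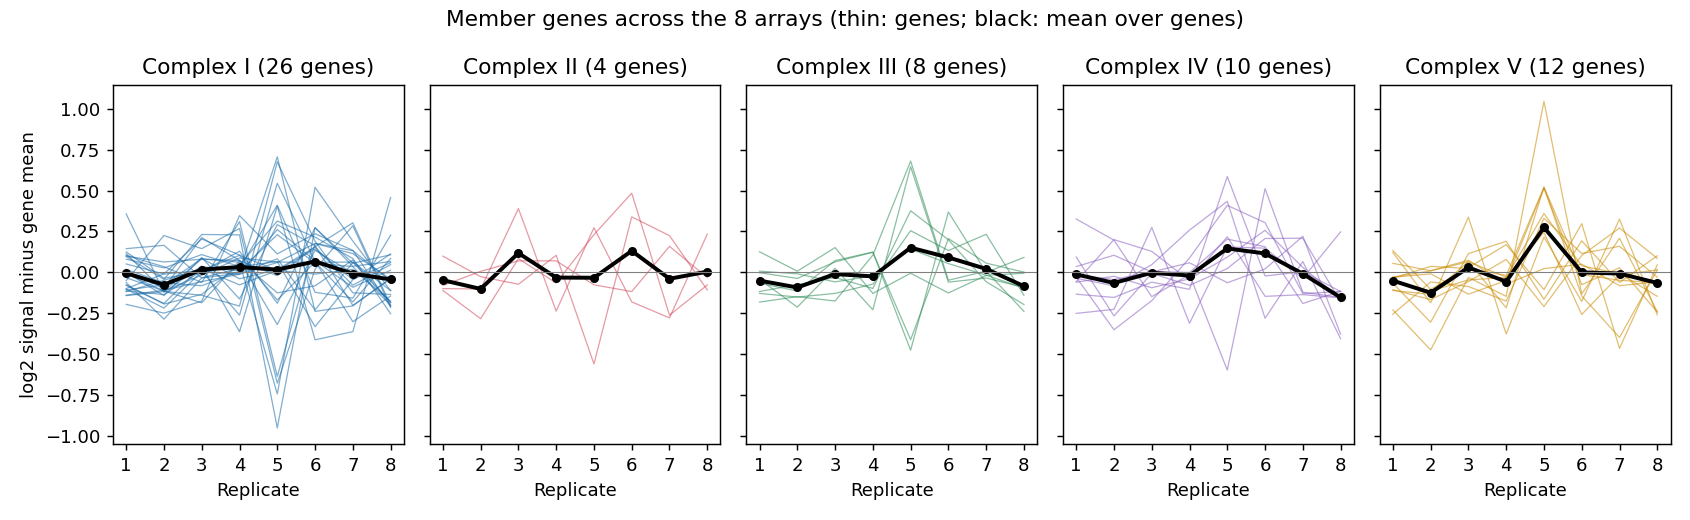
log2 signal minus the gene's mean over 8 arrays, for each member above the filter (thin lines) and as the mean over the genes of a complex (black), against replicate number. Replicate numbers have no order. Lines fan out in both directions on replicate 5, and the mean of complex V reaches 0.27 there.

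In numbers of genes, 27 of the 63 members (42.9%) had their highest value on replicate 5, against 34.1% of all genes. They were 8 of 26 in complex I, 0 of 4 in II, 5 of 8 in III, 5 of 10 in IV and 7 of 12 in V, with Cycs and Ndufaf1. Lowest on replicate 5 were 10 members (15.9%), against 28.3% of all genes: Ndufv1, Ndufb8, Ndufa1, Ndufa3, Ndufa13, Sdhc, Uqcrc1, Cyc1, Cox8b and Atp5g2. Together 37 members (58.7%) had an extreme on replicate 5, against 62.4% of all genes, a share near the background. What differed from the background was the side, and without probe sets of shared sequence 17 of 47 members (36.2%) were highest there, against 34.6%. An array set apart from the other 7 by a gap was found for 16 members (25.4%), against 20.8% of all genes. Replicate 5 was also the array with the raised Gapdh 3′ over 5′ ratio, whose part in these values was not tested.

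Replicate 8, whose control ratios were like those of most arrays (−0.23 for Gapdh), held the lowest value of 14 members (22.2%), against 7.96% of all genes. The 14 were Ndufb2, Ndufb5, Ndufb7, Ndufb9, Ndufb11, Uqcrc2, Uqcrh, Uqcrq, Cox5b, Cox6c, Cox7b, Cox8c, Atp5l and Atp5md. That holds for the probe sets used, as Ndufb2 and Cox6c each had a second one above the filter that was lowest elsewhere. For Ndufb2 it read 5763 on replicate 8 and 4152 on replicate 5, its lowest. For Cox6c it read 970 on replicate 8 and 712 on replicate 6, its lowest. Replicate 2 held the lowest value of another 12 members (19.0%), against 10.1% of all genes. Complex IV scored −0.15 on replicate 8 and −0.06 on replicate 2. Complexes I, II, III and V were lower on replicate 2, at −0.08, −0.10, −0.09 and −0.12, than on replicate 8, at −0.04, 0.00, −0.08 and −0.06. The next lowest array was 1.01 to 1.24 times replicate 8 for these genes (median 1.04). The gap was narrowest for Cox6c, at 7411 against 7457 to 9597, and widest for Cox8c, at 1154 against 1435 to 1747. Ndufb11 was 3264 there against 3659.7 to 3962. Without replicates 5 and 6, 17 members (27.0%) were lowest on replicate 8, against 17.0% of all genes.

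**Figure D4:**
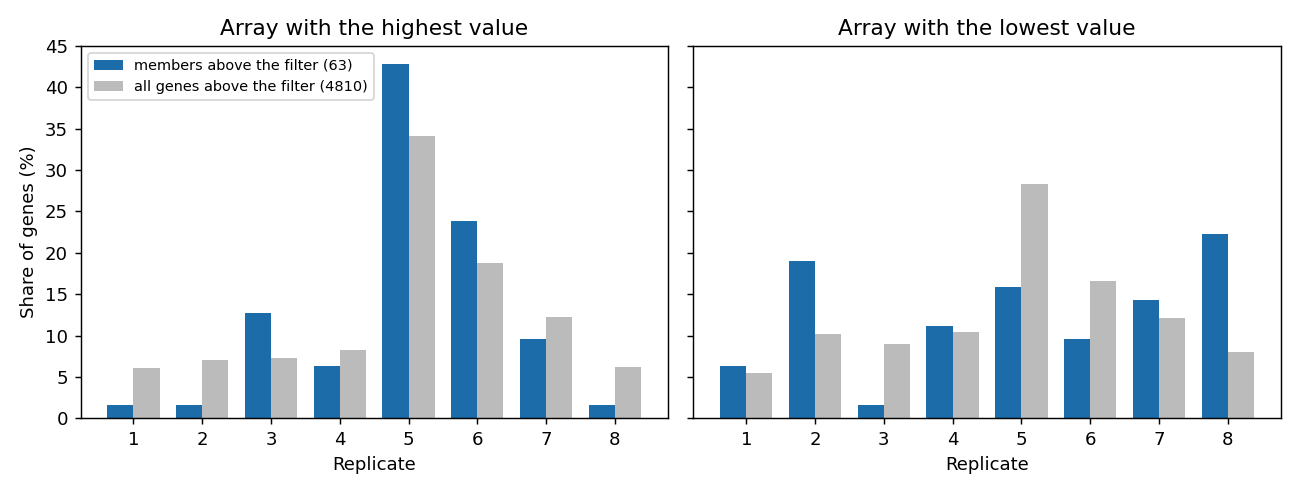
Share of genes (%) whose highest (left) or lowest (right) value lay on each replicate, for the 63 members above the filter (blue) and all 4810 genes above it (grey). Members exceed all genes for the highest value on replicate 5 (42.9% against 34.1%) and replicate 6 (23.8% against 18.8%). They do so too on replicate 3 (8 of 63 members against 352 of 4810 genes). For the lowest value they exceed all genes on replicate 8 (22.2% against 7.96%) and replicate 2 (19.0% against 10.1%), and slightly on replicates 1, 4 and 7.

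Genes read by several probe sets showed how far 1 probe set speaks for its gene. Of 8 members with at least 2 probe sets above the filter, 4 had all of them on the same side of the median of the 6 arrays on replicate 5 (Atp5c1, Cox6c, Cyc1 and Ndufa3) and 4 had them on both sides (Atp5d, Cox4i1, Ndufb2 and Ndufv2). For Cox4i1 the deviations on the log2 scale were 0.53 and −0.35, for Ndufb2 0.26 and −0.43, and for Ndufv2 −0.21 and 0.33. Atp5d had 4 such probe sets, from −0.89 to 0.05, so its place as the steadiest member holds for the probe set used. Both probe sets of Cyc1 gave −0.44.

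**Figure D5:**
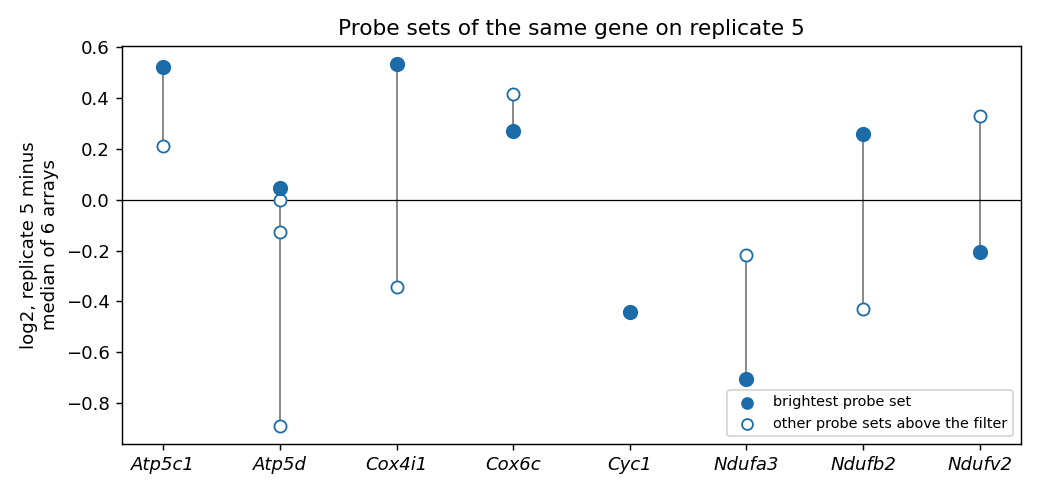
log2 signal on replicate 5 minus the median of replicates 1 to 4, 7 and 8, for each probe set above the filter of the 8 member genes with several; filled points are the probe sets used above. Cox4i1, Ndufb2 and Ndufv2 have points well on both sides of 0, and the 2 points of Cyc1 coincide at −0.44.

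Members moved together only loosely across animals. Over all pairs of the 63 members the median correlation across the 8 arrays was 0.14, against 0.00 over all pairs of genes, and without replicates 5 and 6 it was 0.09. By complex, the median was 0.25 in V, 0.23 in IV, 0.03 in I, −0.13 in II and −0.24 in III. These correlations are over genes that share the same arrays, and describe them only. Without replicates 5 and 6 the medians were 0.10 in V, 0.12 in IV, 0.08 in I, −0.20 in II and 0.22 in III, so the order of the complexes was not kept.

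Genes around the chain were read from lists of related function. Of 6 regulators of mitochondrial biogenesis above the filter, 0 had an adjusted p under 0.05 in the limma-based variance test. At an unadjusted 0.05 the test passed 4.84% of all genes, the background of every list here, and 1 of these regulators. It was Esrra, an orphan receptor that drives respiratory genes. Esrra was 281 on replicate 5 and 837 to 1236 on the other 7 arrays (limma-based test, unadjusted p = 0.0348, adjusted p = 0.865). Its coactivator gene Ppargc1a was below the filter (24.6 to 69.8), as was Tfam (24.6 to 46.2), which packages mitochondrial DNA. Of 12 assembly factors, 0 passed even unadjusted, and 7 (58.3%) were highest on replicate 5, against 34.1% of all genes. That list shares Ndufaf1, one of the 7, and Ndufaf4 with the members described above. The 7 also held the copper chaperone Cox17 (2546 against 1489 to 1754) and the haem lyase Hccs (462 against 175 to 269). Among 5 carrier, porin and inhibitor genes, 0 passed unadjusted. On replicate 5, 4 of the 5 lay above the median of replicates 1 to 4, 7 and 8, against 53.6% of all genes. The porin Vdac2 was 579 there and 294 to 429 elsewhere. The exception was Slc25a5, an ADP/ATP carrier, at 727 on replicate 5 and 1584 to 2104 elsewhere. None of 6 genes for other electron donors (0 unadjusted) and none of 11 citric acid cycle genes (0 unadjusted) passed, with median ranges of 1.91-fold and 1.55-fold. Cytosolic ribosomal protein genes above the filter had a median range of 1.39-fold. Of these 24 genes, 5 (20.8%) were highest on replicate 5 and 13 (54.2%) on replicate 6, against 34.1% and 18.8% of all genes.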

How the data were processed

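Liver RNA of 8 animals was measured on Affymetrix mouse U74Av2 arrays, per the labels. The authors deposited intensities on a linear scale, 1 per probe set and array. The scanner was a Hewlett-Packard GeneArray, per the labels' protocols. For software, background and mismatch handling, the steps were not given in the sources used here. Deposited medians ran from 132 to 166, and means trimmed by 2% at each end were 500.38 to 500.41. The 66 controls were left out and the rest quantile-normalized, values below 24.6 (the 20th percentile) were raised to it, and log2 was taken. Probe sets above the median mean log2 signal (6211) were kept. The probe set with the highest mean represented its gene. limma (3.58.1, R 4.3.3) gave a level-dependent robust prior variance, and each variance over it was tested by a 1-sided F. The F test had 7 residual and 4.03 prior degrees of freedom. It was also run on simulated data, and its recovery there is not given here. Symbols came from the platform annotation, and none of the members' changed against RefSeq (GRCm38.p6).

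Members and lists were chosen with earlier results of these data known. Every member could be named. Values in all arrays were ruled for the members with the 3 largest and the smallest SD of complexes I, III, IV and V, all of complex II, cytochrome c, isoform families, members past an unadjusted p of 0.05, and those with the longest and shortest proteins. A relation to protein length was planned and not run, as no protein table was used here. p-values reflect the spread between these arrays only, and their number limits the precision.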

Additional observations from a re-analysis of the deposited data

Results flagged for a closer look

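An array far from the other 7 (a gap to the nearest array above Dixon's 95% critical value) was found for 16 of the 63 members above the filter, against 20.8% of all genes, where chance flags about 1 gene in 20. On replicate 5 the high signals were Atp5c1 at 9935, Atp5j at 4495, Atp5k at 1096, Atp5l at 11321, Atp5md at 13273, Cox7a2 at 8799, Cycs at 1027, Ndufa5 at 5849.8, Ndufab1 at 4679.9, Uqcrb at 9351 and Uqcrc2 at 4582. The low signals there were Cyc1 at 8984, Ndufa3 at 2542 and Ndufb8 at 1576. Ndufa10 was low on replicate 6 at 310.2, and Ndufb11 was low on replicate 8 at 3264. Of the scores, only that of complex V stood apart, at 0.27 on replicate 5.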

How the results depend on the processing

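The variance test called 0 members at an adjusted p of 0.05 under each alternative run. Unadjusted, it called 1 (Ndufb3) without both replicates 5 and 6, and 0 under each other one. The 5 members over 2-fold became 10 (15.9%, against 38.2% of all genes) with the deposited scaling and 12 of 73 (16.4%, against 46.6%) with no level filter. They were 0 to 5 with 1 array left out, with 0 without replicate 5 (16.3% of all genes) and 3 without replicate 6 (30.8%), and 0 without both. Members highest on replicate 5 numbered 17 of 47 (36.2%, against 34.6% of all genes) without shared-sequence probe sets. With another array left out they numbered 27 to 29 (42.9% to 46.0%, against 34.7% to 37.3% of all genes). Members lowest on replicate 8 numbered 9 of 47 (19.1%, against 7.25% of all genes) without shared-sequence probe sets, where fewer genes were counted. With another array left out they numbered 14 to 19 (22.2% to 30.2%, against 8.57% to 13.6% of all genes). With the deposited scaling the scores on replicate 5 were 0.082 for complex I, 0.054 for complex II and 0.27 for complex III. Without shared-sequence probe sets they were −0.011 for complex III and 0.24 for complex IV, and with no level filter 0.24 for complex IV. The other 121 values of these results moved by less than 1 SD, or by at most 1.5 times for counts. With 1 array left out the scores were 0.01 to 0.03, −0.05 to −0.01, 0.14 to 0.16, 0.13 to 0.16 and 0.23 to 0.28 for complexes I to V. Except where stated, causes were not tested. Ndufa4 has no probe set among the members, so its alternative was not run, nor was the variance test on means over probe sets. No paired analysis was possible because there is 1 group.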

Other observations

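Probe sets naming a member together with a second gene or pseudogene were left out above. Of these, Ndufs5, a complex I accessory subunit, read 5271 on replicate 5 and 2872 to 4036 on the other 7 arrays. Cox7c, of complex IV, had 1 probe set at 17612 to 19460.2 (1.10-fold) and another at 11259 to 17054. Ndufs6, of complex I, was 7043 on replicate 5 on 1 probe set and lowest there on the second (2959.7 against 3359 to 4026), so its probe sets disagreed on that array.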
